A study of Mus musculus with 21 samples.

Results

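Seven-transmembrane receptors that sense chemoattractants were followed through the messenger RNA of mouse microglia with and without apolipoprotein E (ApoE). The 7 receptors are Cx3cr1, Ccr2, Ccr1, Cxcr4, Ccrl2, Cmklr1 and Gpr183. They were taken by gene name from 2 tables of normalised counts that together hold 18718 genes. All 7 have a row in the table of uninjected mice. In the table of injected mice 6 have one, and Cxcr4 was not analysed there.

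Most chemoattractant receptors are coupled to inhibitory G proteins and turn a gradient of ligand into directed movement of the cell. Ccrl2 is an exception and binds its ligand without signalling. Microglia are the resident macrophages of the brain, and they are known for a very high level of Cx3cr1, the receptor of fractalkine (Cx3cl1), a chemokine that neurons carry on their membrane. Ccr2, the receptor of Ccl2, marks inflammatory monocytes of the blood, so a pair of Cx3cr1 and Ccr2 is commonly used to tell resident from incoming cells. Cmklr1 and Ccrl2 bind chemerin, and Gpr183 responds to oxysterols made by Ch25h and Cyp7b1.

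The samples are labelled as brain microglia from mice 12 to 18 weeks old, in 4 groups. The first table compares 4 libraries from uninjected ApoE knockout females of strain B6.129P2-Apoetm1Unc/J with 7 libraries from uninjected wild-type C57BL/6 females. The second compares 5 libraries from knockout males that received recombinant APOE protein (rAPOE) in PBS with 5 libraries from knockout males that received PBS alone, so every injected animal lacks its own ApoE. Injections went into the left hemisphere, and microglia were prepared 16 h later from the left and the contralateral side. Neither the side nor the animal behind a library is given, so the replicate spread that p-values rest on may be partly technical. The knockout is carried in all cells of the body, and knockout and wild type also differ in strain label. Each table was normalised apart, so levels are not compared between them.

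Apoe itself stood at 10.2, 0, 0 and 23.1 in the knockout libraries, against 13196 to 17164 in 6 of the wild-type libraries and 1011 in wild-type library 8. That library stands apart in other ways: the gene Gm42418 took 42.1% of its reads, and 15.6% to 19.8% of the reads in each of the other 6 wild-type libraries. In knockout there were 4247865 to 4969287 reads and 8117 to 10479 genes with a read per library, and in wild type 2016972 to 3054976 reads and 13592 to 15248 genes. The rAPOE libraries held 857059 to 1119059 reads and the PBS libraries 704225 to 1347501. Although all uninjected mice are labelled female, 4 Y-linked genes had 11 to 36 reads in each wild-type library apart from library 8, and 0 in library 8 and in knockout. Xist was at 1127 to 1279 in those 6 libraries, against 1980 to 3292 in knockout and 3291 in library 8, so the 6 libraries hold both kinds of sex-linked RNA, and whether they were pooled or mislabelled was not tested. Although all injected mice are labelled male, rAPOE library 5 and PBS library 5 held no Y-linked read and had Xist at 718 and 979. The sex-linked reads move with genotype apart from library 8, their part in the results was not tested, and the differences of the receptors are given with and without wild-type library 8 or both libraries numbered 5.

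In GENCODE M21 for GRCm38 all 7 genes are protein-coding, and their principal transcripts have 2 exons, or 3 in Ccr2 and Cmklr1. Cx3cr1 lies on chromosome 9 from 120048683 to 120068296 on the minus strand, and Ccr1 and Ccr2 lie at 123962124 to 123968692 and 124102183 to 124108550 of the same chromosome, as does Ccrl2 at 111054486 to 111057270. Cxcr4 lies on chromosome 1 from 128588199 to 128592290, Cmklr1 on chromosome 5 from 113612354 to 113650426 and Gpr183 on chromosome 14 from 121952551 to 121965195. A gene on the opposite strand overlaps the principal transcripts of Cmklr1 (Gm15736) and of Gpr183 (Ubac2). The full gene record of Cx3cr1 is longer and overlaps 9 genes on either strand, while its principal transcript overlaps 0. These overlaps are of whole spans, introns included, and overlap of exons was not examined. Whether the counting used strand is not given in the sources used here, so whether reads of those genes were told apart is not known.

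The 250 bases before the RefSeq start sites of Cx3cr1 and Cxcr4 (GRCm38.p6, minus strand, printed 5′ to 3′) are shown because these are the receptors that passed the test between knockout and wild type, one in each direction. They span chr9:120068297-120068546 and chr1:128592300-128592549. Capitals mark matches to the words TATAAA and CCAAT on either strand.
Cx3cr1: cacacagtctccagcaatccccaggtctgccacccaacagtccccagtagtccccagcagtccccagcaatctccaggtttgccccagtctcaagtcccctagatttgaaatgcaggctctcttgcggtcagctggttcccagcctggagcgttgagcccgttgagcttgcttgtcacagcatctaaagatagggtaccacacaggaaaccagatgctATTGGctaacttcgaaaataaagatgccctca
Cxcr4: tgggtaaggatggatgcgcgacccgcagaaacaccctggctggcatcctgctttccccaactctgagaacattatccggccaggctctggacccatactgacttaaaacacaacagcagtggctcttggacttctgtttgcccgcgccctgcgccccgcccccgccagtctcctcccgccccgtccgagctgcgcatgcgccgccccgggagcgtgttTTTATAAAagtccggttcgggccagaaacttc
The Cx3cr1 window holds the word CCAAT on the opposite strand, beginning 32 bases before the start, and no TATAAA. The Cxcr4 window holds TATAAA on both strands in overlapping copies that begin 32 and 30 bases before the start, and no CCAAT. Of 32851 RefSeq promoter windows of this length, 12.4% held TATAAA and 33.8% held CCAAT on either strand. The words GAGGAA and TGANTCA were found in neither window, and 23.3% and 6.75% of all windows held them. CANNTG was found in the Cx3cr1 window, and 66.2% of all windows held it. The Cxcr4 window has 19 CG dinucleotides and the Cx3cr1 window 4, against a median of 6 over all windows. A match is a description of the letters and does not show that a factor binds.

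Cx3cr1 made up nearly all of the receptor signal in each library. The libraries give 1 tag near the 3′ end of each transcript, so levels of different genes can be set beside each other without division by length. Of the summed reads of the receptors, Cx3cr1 held 96.3% ± 0.753 in knockout libraries (SD, n = 4) and 95.2% ± 0.553 in wild-type libraries (SD, n = 7). In the injected mice, where 6 receptors were summed, it held 91.4% ± 2.18 in rAPOE libraries and 90.9% ± 2.12 in PBS libraries (SD, n = 5 each).

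Below Cx3cr1 the order of mean normalised counts in the uninjected mice was Cmklr1, Gpr183 and Ccrl2, then a group at or below 76.0 in every library. In knockout libraries Cmklr1 ranged from 495 to 1233, Gpr183 from 183 to 348 and Ccrl2 from 61.6 to 135, with no overlap between neighbours. The other receptors, Ccr1 (7.57 to 25.0), Ccr2 (0 to 22.2) and Cxcr4 (0 to 15.5), overlapped in the knockout libraries, so their order there is not resolved. In wild type Cmklr1 ranged from 507 to 769, Gpr183 from 186 to 876 and Ccrl2 from 68.6 to 193, and each of these overlapped with its neighbour. Without wild-type library 8, Gpr183 ranged from 186 to 261 and lay below Cmklr1 in every library, but it still overlapped with Ccrl2. In those 6 libraries Cxcr4 (40.4 to 76.0) lay above Ccr2 (16.9 to 33.8) and Ccr1 (8.41 to 28.9). In the injected mice Gpr183 came before Cmklr1, at 196 to 436 against 60.5 to 106 in rAPOE libraries, without overlap, and at 207 to 390 against 92.2 to 210 in PBS libraries, with overlap.

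**Figure D1:**
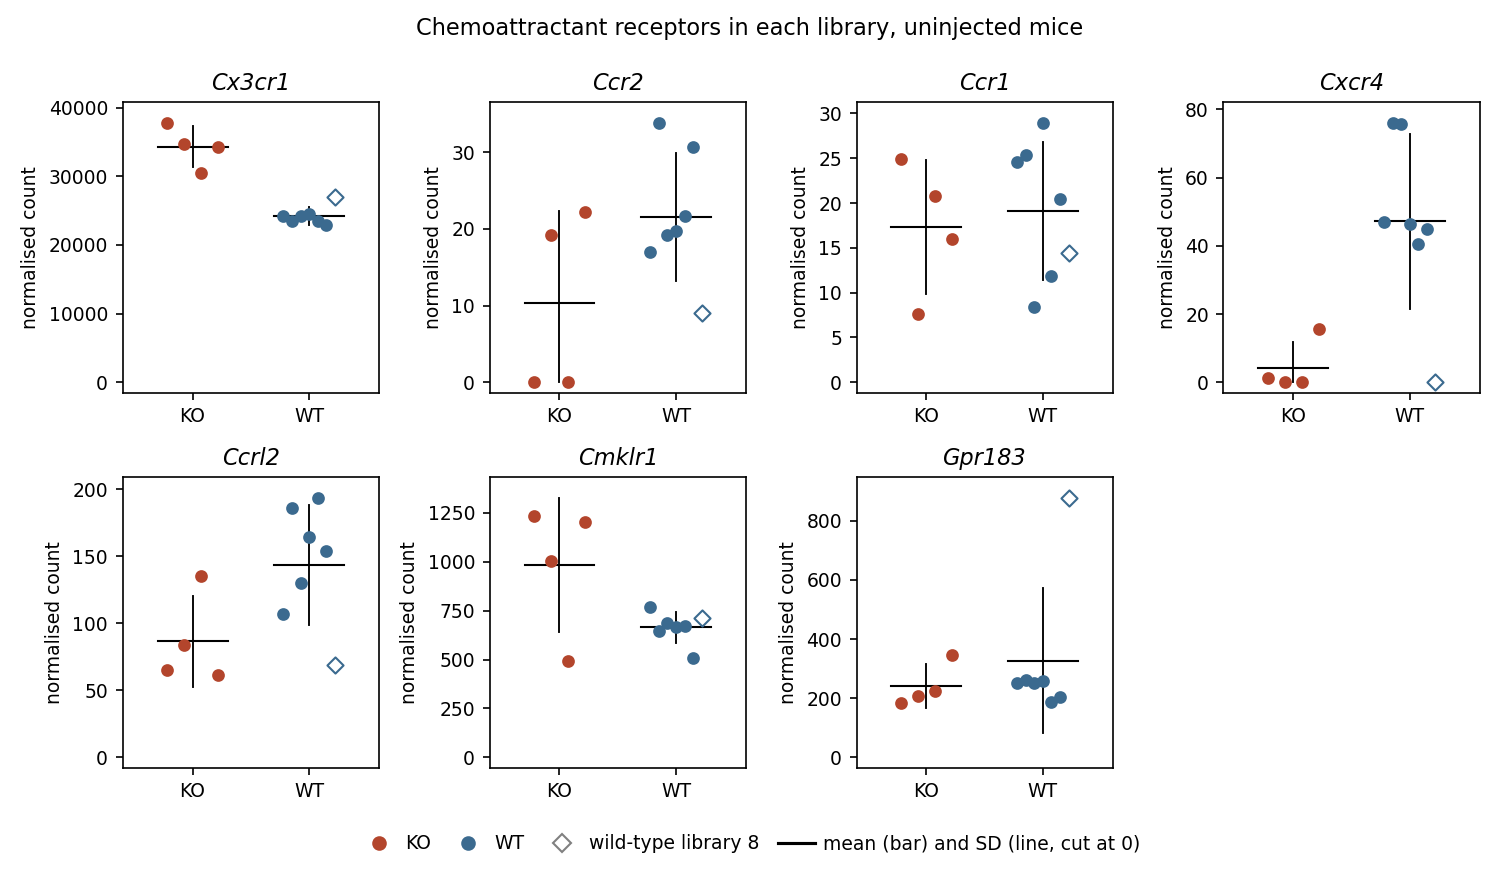
Normalised count of each receptor in every uninjected library, with knockout (KO) left of wild type (WT) and a separate linear axis per receptor; bars are means, lines the SD, and the open diamond is wild-type library 8. All 4 knockout libraries lie above all wild-type libraries for Cx3cr1, and for Cxcr4 library 8 lies at 0 beside the knockout libraries.

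The first comparison asks how the loss of ApoE bears on microglial RNA. Cx3cr1 rose in the knockout libraries and Cxcr4 fell, and the other 5 receptors did not pass the test. The test was limma over all 10401 genes with a mean normalised count of at least 10, passed where the Benjamini-Hochberg adjusted p lay under 0.05. Of those genes 25.0% passed, 5.14% as higher and 19.8% as lower in knockout, so 2 of 7 receptors is close to the share among all genes. Among the 572 genes with a mean of at least 500, where Cx3cr1 belongs, 24.8% passed as higher and 12.9% as lower. The median log2 difference of all genes was -0.45.

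Cx3cr1, the fractalkine receptor, stood at 37774, 34656, 30503 and 34329 in the knockout libraries. In the wild-type libraries it ranged from 22955 to 27054 with a median of 24164, and the highest of these was library 8. Every knockout library lay above every wild-type library, and 3.67% of all genes tested were separated in that direction. The mean was 34316 ± 2978 in knockout (SD, n = 4) and 24255 ± 1345 in wild type (SD, n = 7), a ratio of 1.41. The log2 difference was 0.50 (SE 0.154, limma, adjusted p = 0.0288). Without wild-type library 8 it was 0.52 (SE 0.0669, adjusted p = 6.1e-05), with 30.6% of all genes passing, 7.64% as higher and 23.0% as lower. The adjusted p ranged from 5.92e-07 to 0.13 over 20 alternatives. It was above 0.05 with libraries scaled to 11 microglial genes, and without knockout library 1 or 2 or any of wild-type libraries 1, 2, 3, 4, 6 and 7 (0.0508 to 0.0706), while the difference itself stayed between 0.45 and 0.55 with any 1 library left out. Quantile normalisation moved it to 0.92, and scaling to the microglial genes to 0.32. As CPM of the recovered reads, without the authors' factors, Cx3cr1 ranged from 14808 to 15710 in knockout and from 7429 to 10293 in wild type. Library 8 was the lowest of wild type on that scale. In RNA from a pool of cells, fewer cells of a type and less RNA per cell cannot be told apart.

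Of 10 microglial markers, 7 rose and 0 fell in knockout, and their median log2 difference was 0.53. The share passing as higher was 5.14% over all genes tested and 24.8% over genes with a mean of at least 500. Of the 11 microglial genes used for scaling, most of which other macrophages also express, 2 rose, 0 fell and 9 did not pass, with a median of 0.11. The summed level of the 10 microglial markers was 44994 to 50950 in knockout libraries, against 28822 to 41212 in wild-type libraries, where library 8 was the highest. Tmem119, a membrane protein of resident microglia, had a log2 difference of 1.23 (adjusted p = 1.18e-05 in limma). P2ry12, the ADP receptor that directs microglial processes to injury, had one of 0.79 (adjusted p = 0.0214 in limma). Gpr34, a lysophosphatidylserine receptor, had one of 0.61 (adjusted p = 0.0148 in limma). P2ry12 passed in 16 and Gpr34 in 19 of 20 alternatives, and neither passed with scaling to microglial genes. The difference of Cx3cr1 was smaller than these 3. The ratio of Cx3cr1 to Tmem119 within a library was 7.03 ± 0.893 in knockout (SD, n = 4), against 11.7 ± 0.975 in wild type (SD, n = 7), with no overlap between 5.86 to 8.03 and 10.3 to 13.4. The ratio to P2ry12 was 7.26 ± 0.397 in knockout (SD, n = 4) and 9.17 ± 2.31 in wild type (SD, n = 7), and its ranges overlapped.

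**Figure D2:**
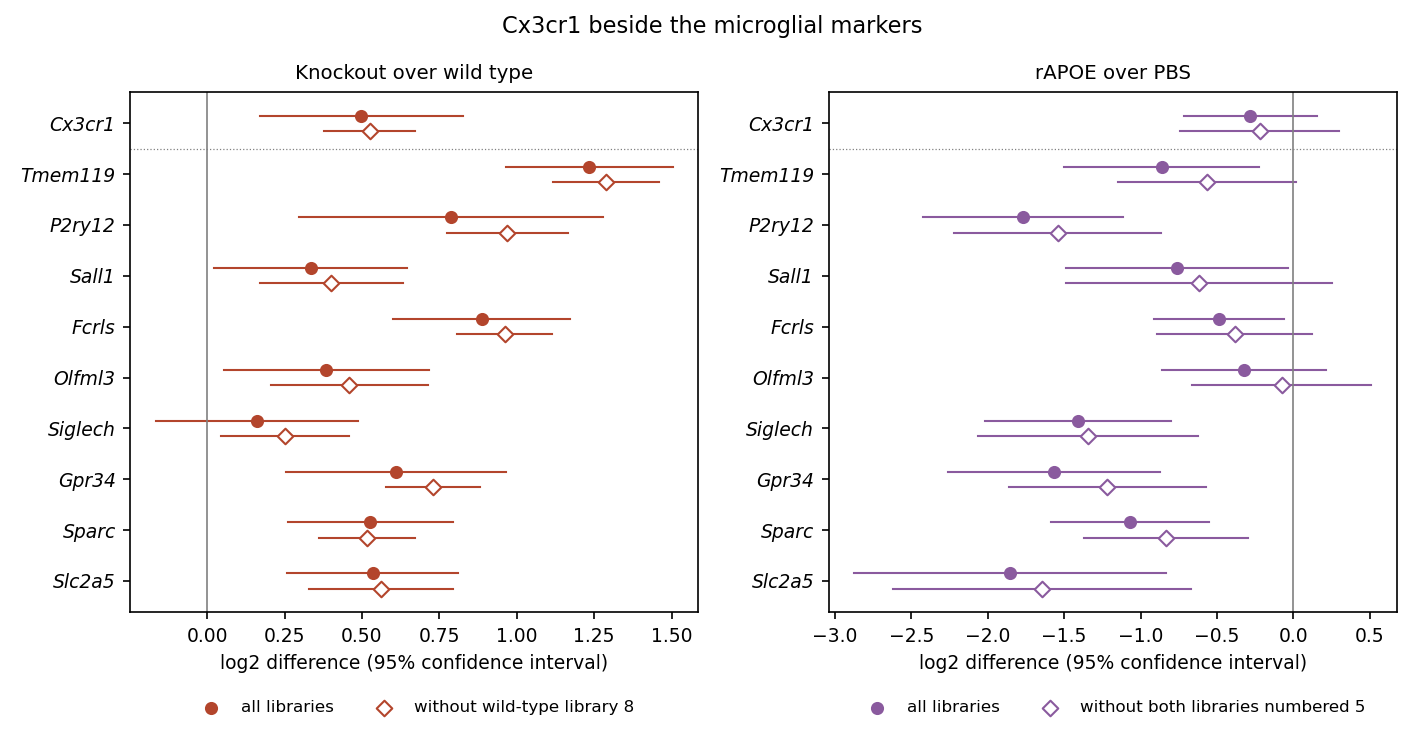
Log2 differences of Cx3cr1 and 9 microglial markers with 95% confidence intervals, knockout over wild type on the left and rAPOE over PBS on the right; filled circles use all libraries and open diamonds leave out the libraries that stand apart. Cx3cr1 lies at 0.50 on the left, within the range of the markers, and at -0.28 on the right, nearer to 0 than each of the 9 markers when all libraries are used.

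Markers of other cells moved between these groups as well, where 5.14% of all genes tested passed as higher and 19.8% as lower in knockout. Of 13 monocyte markers tested 8 fell, and their summed level was 650 to 1023 in knockout, against 5938 to 7598 in wild type other than library 8 and 265 in library 8. Plac8, S100a4, Vcan and Napsa were at 0 in every knockout library. All 8 choroid plexus markers fell, with sums of 446 to 872 in knockout and 23731 to 83378 in wild type, and 9 of 11 markers of neurons, astrocytes and oligodendrocytes fell (145 to 321 in knockout, 572 to 1890 in wild type). Lymphocyte markers fell in 3 of 4 tested (sums of 27.2 to 73.5 in knockout and 30.7 to 228 in wild type), with 10 of 11 at 0 in every knockout library. Of 7 border macrophage markers 2 fell and 1 rose (684 to 796 in knockout, 865 to 1080 in wild type), of 5 endothelial markers 1 fell (165 to 329 in knockout, 226 to 396 in wild type), and of 9 neutrophil markers none passed (1792 to 6407 in knockout, 367 to 2970 in wild type). The part of these cells in the receptor results was not tested.

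Cxcr4, the receptor of Cxcl12 that holds blood cells and their precursors in place, had normalised counts of 1.14, 0, 0 and 15.5 in the knockout libraries. In wild type it ranged from 0 to 76.0 with a median of 46.3. The single 0 among the wild-type libraries was library 8, and the other 6 lay between 40.4 and 76.0, above all knockout libraries. The knockout libraries hold 37 reads of Cxcr4 in all and the wild-type libraries 312, and a level of 3 reads corresponds to 1.30 to 1.70 in knockout libraries and to 5.42 in wild-type library 8. The mean was 4.16 ± 7.59 in knockout (SD, n = 4) and 47.2 ± 25.6 in wild type (SD, n = 7). The log2 difference was -3.65 (SE 1.16, limma, adjusted p = 0.0325), and -4.48 without wild-type library 8 (SE 0.762, adjusted p = 0.000684). Over 19 alternatives the adjusted p ranged from 0.000684 to 0.111. It was above 0.05 in edgeR (-3.42, adjusted p = 0.104), with quantile normalisation (-1.84, adjusted p = 0.111), and without knockout library 1, 2 or 3 or any of wild-type libraries 1, 2, 3, 4, 6 and 7.

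Ccr2, which draws monocytes toward Ccl2, was at 0, 19.1, 0 and 22.2 in knockout libraries, and between 9.03 and 33.8 with a median of 19.7 in wild type. A pair of knockout libraries held no read and the other pair lay within the wild-type range, so the groups overlap. This is a log2 difference of -2.18 (SE 0.914, limma, adjusted p = 0.0978, 95% interval -4.14 to -0.23), and -2.36 without wild-type library 8 (adjusted p = 0.0768). It passed without knockout library 2 (adjusted p = 0.0351) and without knockout library 4 (adjusted p = 0.0288), within a range of 0.0288 to 0.975 over 19 alternatives, and with quantile normalisation its sign turned. The part of the monocyte markers given above, and of the lower number of detected genes in the knockout libraries, in the values of Cxcr4 and Ccr2 was not tested.

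Ccr1, a receptor of Ccl3, Ccl5 and related chemokines, was at 25.0, 7.57, 20.7 and 15.96 in knockout and between 8.41 and 28.9 with a median of 20.4 in wild type. The groups overlap over almost their whole range. Its log2 difference was -0.15 (95% interval -1.34 to 1.05, limma, adjusted p = 0.869), and -0.19 without wild-type library 8 (adjusted p = 0.812, within a range of 0.212 to 0.975 over 19 alternatives).

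Cmklr1, the signalling receptor of chemerin, was at 1233, 1003, 495 and 1202 in knockout, against 507 to 769 in wild type with a median of 673. Knockout libraries 1, 2 and 4 lay above all wild-type libraries and knockout library 3 below all of them. The mean was 983 ± 341 in knockout (SD, n = 4) and 665 ± 80.4 in wild type (SD, n = 7), and the log2 difference of 0.49 (SE 0.218) did not pass in limma (adjusted p = 0.121). Without wild-type library 8 it was 0.51 (adjusted p = 0.111) and without knockout library 3 it was 0.79 (adjusted p = 0.00192), within a range of 0.00192 to 0.291 over 20 alternatives.

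Ccrl2, which binds chemerin without signalling and presents it to Cmklr1, was at 65.3, 84.2, 135 and 61.6 in knockout, and between 68.6 and 193 with a median of 154 in wild type. Knockout library 3 was again the one out of order, this time as the highest, and library 8 was the lowest of wild type. The log2 difference was -0.72 (SE 0.315, limma, adjusted p = 0.113). It was -0.88 without wild-type library 8 (SE 0.256, adjusted p = 0.0206) and -0.96 without knockout library 3 (adjusted p = 0.0374), within a range of 0.0206 to 0.231 over 20 alternatives. The gene of their shared ligand, Rarres2, was too low for the test, with 0 reads in all knockout libraries and levels of 0.986 to 17.3 in wild type.

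Gpr183, the oxysterol receptor that guides immune cells within lymphoid tissue, was at 183, 208, 225 and 348 in knockout, against 186 to 876 in wild type with a median of 252. The highest wild-type value belonged to library 8, and the next was 261. The log2 difference was -0.27 (SE 0.348, limma, adjusted p = 0.592), and without library 8 it was -0.0024 (95% interval -0.40 to 0.40, adjusted p = 0.995), within a range of 0.34 to 0.995 over 20 alternatives.

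**Figure D3:**
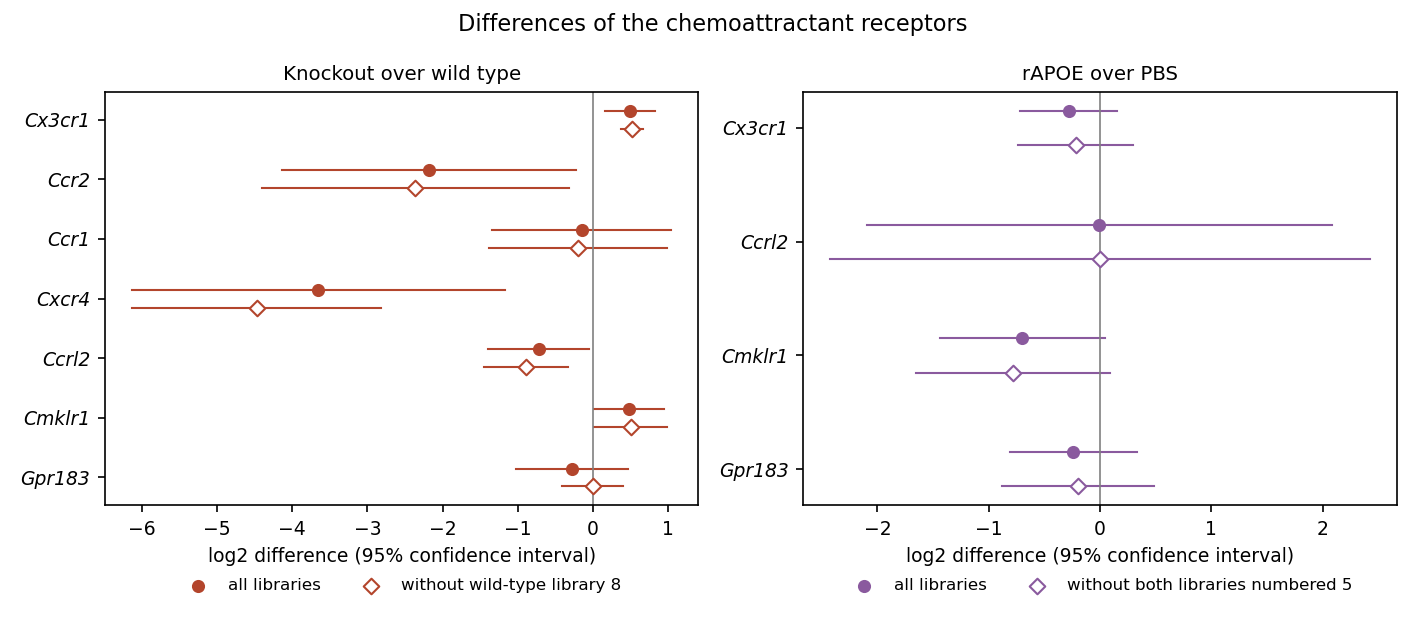
Log2 differences of the receptors with 95% confidence intervals from limma, knockout over wild type on the left (7 receptors) and rAPOE over PBS on the right (the 4 receptors above the count minimum); filled circles use all libraries and open diamonds leave out the libraries that stand apart. Cx3cr1 (0.50) and Cxcr4 (-3.65) passed the test on the left, and every interval on the right includes 0.

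The next list holds genes of the receptors' ligands and of enzymes that make them. Of 11 tested, 0 rose, 3 fell and 8 did not pass, with a median log2 difference of -1.10, and 25.0% of all genes passed, 19.8% as lower. Cx3cl1, the ligand of Cx3cr1, stood at 15.3, 0, 0 and 11.1 in knockout, against 5.42 to 97.9 with a median of 74.1 in wild type, where the lowest was library 8. Its log2 difference was -3.80 (SE 0.954, limma, adjusted p = 0.00952). It passed in 18 of 19 alternatives, with edgeR as the exception (adjusted p = 0.0633, the highest, with 0.00171 the lowest). Markers of neurons, astrocytes and oligodendrocytes fell in the same libraries (9 of 11 tested), with a median log2 difference of -3.85. The part of those cells in the Cx3cl1 values was not tested. Ccl5, a ligand of Ccr1, was at 22.7, 0, 0 and 0 in knockout and between 3.61 and 49.5 in wild type, with a log2 difference of -3.38 (limma, adjusted p = 0.0184) that did not pass in edgeR (adjusted p = 0.34) or DESeq2 (adjusted p = 0.228), within a range of 0.000973 to 0.394 over 19 alternatives. Ccl4, a chemokine that activated microglia release, was at 326 to 376 in knockout and 209 to 1265 in wild type, and its log2 difference was -1.37 (limma, adjusted p = 0.0208), or -1.71 without wild-type library 8, the lowest of the group (adjusted p = 1.17e-07, within a range of 1.17e-07 to 0.049 over 20 alternatives).

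The other ligand genes did not pass. Ccl3, a ligand of Ccr1, had a log2 difference of -0.97 (limma, adjusted p = 0.0928), and without wild-type library 8 one of -1.27 (adjusted p = 0.00115), within a range of 0.00115 to 0.222 over 20 alternatives. Ccl6, another ligand of Ccr1 in the mouse, had a log2 difference of -1.10 (limma, adjusted p = 0.0604), and without wild-type library 8 one of -1.46 (adjusted p = 1.18e-06), within a range of 1.18e-06 to 0.113 over 20 alternatives. The Ccr2 ligands Ccl2 (log2 difference 0.01) and Ccl12 (-0.95) had limma adjusted p of 0.991 and 0.505. Ccl12 was at 74.4, 128, 0 and 39.0 in knockout and 36.1 to 64.1 in wild type. Without knockout library 3 its log2 difference was 0.60. Cxcl12, the ligand of Cxcr4, had -1.90 (limma, adjusted p = 0.125). Mif, which can bind Cxcr4, had -2.15 (limma, adjusted p = 0.134), which rests on knockout library 3 at 0, since it was -0.64 without that library. Ch25h, which makes the precursor of the Gpr183 ligand, had -0.23 (limma, adjusted p = 0.898). Ccl9, another ligand of Ccr1 in the mouse, was at 177 to 241 in knockout and 46.9 to 235 in wild type (log2 difference 0.53, limma, adjusted p = 0.277). Ccl7 and Cyp7b1 were below the count minimum.

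Of 29 other chemoattractant receptors, 6 were abundant enough for the test, of which 2 rose and 1 fell. The shares over all genes tested were 5.14% passing as higher and 19.8% as lower. All libraries of the groups were separate in 3.67% of all genes as higher and in 10.6% as lower in knockout. Ptafr, the receptor of platelet-activating factor, was at 594 to 853 in knockout and 222 to 359 in wild type, without overlap, and had a log2 difference of 1.20 (limma, adjusted p = 1.4e-04). C5ar2, the second receptor of complement C5a, was at 0 to 34.7 in knockout and 48.3 to 128 in wild type, and its log2 difference was -3.31 (limma, adjusted p = 0.00476).

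Downstream of the receptors, 30 genes of G protein signalling and receptor desensitisation were tested, of which 5 rose, 3 fell and 22 did not pass, a share close to the 25.0% of all genes that passed. Grk2, a kinase that switches off occupied receptors, was at 423 to 571 in knockout and 226 to 345 in wild type, with a log2 difference of 0.87 (limma, adjusted p = 0.00214). Rgs10, which speeds the turning off of inhibitory G proteins, was at 1337 to 1551 in knockout and 941 to 1042 in wild type, with one of 0.53 (limma, adjusted p = 0.00192). Gnai1, an inhibitory G protein subunit, was at 0 in all knockout libraries and at 3.47 to 31.2 in wild type (limma, adjusted p = 2.62e-04). Grk5, another receptor kinase, was at 0 in 3 knockout libraries and 7.98 in the other, against 3.61 to 50.4 in wild type (limma, adjusted p = 0.00355). Gnai1 passed in 12 of 13 alternatives (all but quantile normalisation) and Grk5 in 17 of 19 (all but quantile normalisation and edgeR).

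The second comparison asks what recombinant APOE in the brain does to microglia that lack their own. None of the receptors passed the test 16 h after the injection. Of 7066 genes tested, 34 passed (0.481%), 26 as higher (0.368%) and 8 as lower in rAPOE (0.113%), and among genes with a mean of at least 500 the shares were 1.23% and 3.07%. Without both libraries numbered 5, 11 genes passed (0.157%), 0.142% as higher and 0.0142% as lower. At an unadjusted p under 0.05 the count was 0 of the 4 receptors tested with limma, and edgeR and DESeq2 also passed 0 of them at an adjusted p under 0.05. In simulated data with the gene means of these libraries, 2.15% of 2-fold and 88.0% of 8-fold changes among 6749 genes passed. The spread between simulated libraries was set by a formula and not estimated from these libraries, so these shares do not give the power of the test here.

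Cx3cr1 was at 4492, 4190, 5666, 3609 and 3693 in rAPOE libraries and at 5483, 5647, 5512, 4148 and 5345 in PBS libraries. Of the rAPOE libraries, 4 lay below 4 of the PBS libraries, but library 3 was the highest of all 10 and PBS library 4 fell among the rAPOE libraries, so the groups overlap. The mean was 4330 ± 830 in rAPOE and 5227 ± 613 in PBS (SD, n = 5 each), and the log2 difference was -0.28 (SE 0.209, 95% interval -0.72 to 0.15, limma, adjusted p = 0.654). Without both libraries numbered 5 it was -0.22 (95% interval -0.74 to 0.30, adjusted p = 0.835), within a range of 0.473 to 0.854 over 20 alternatives.

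**Figure D4:**
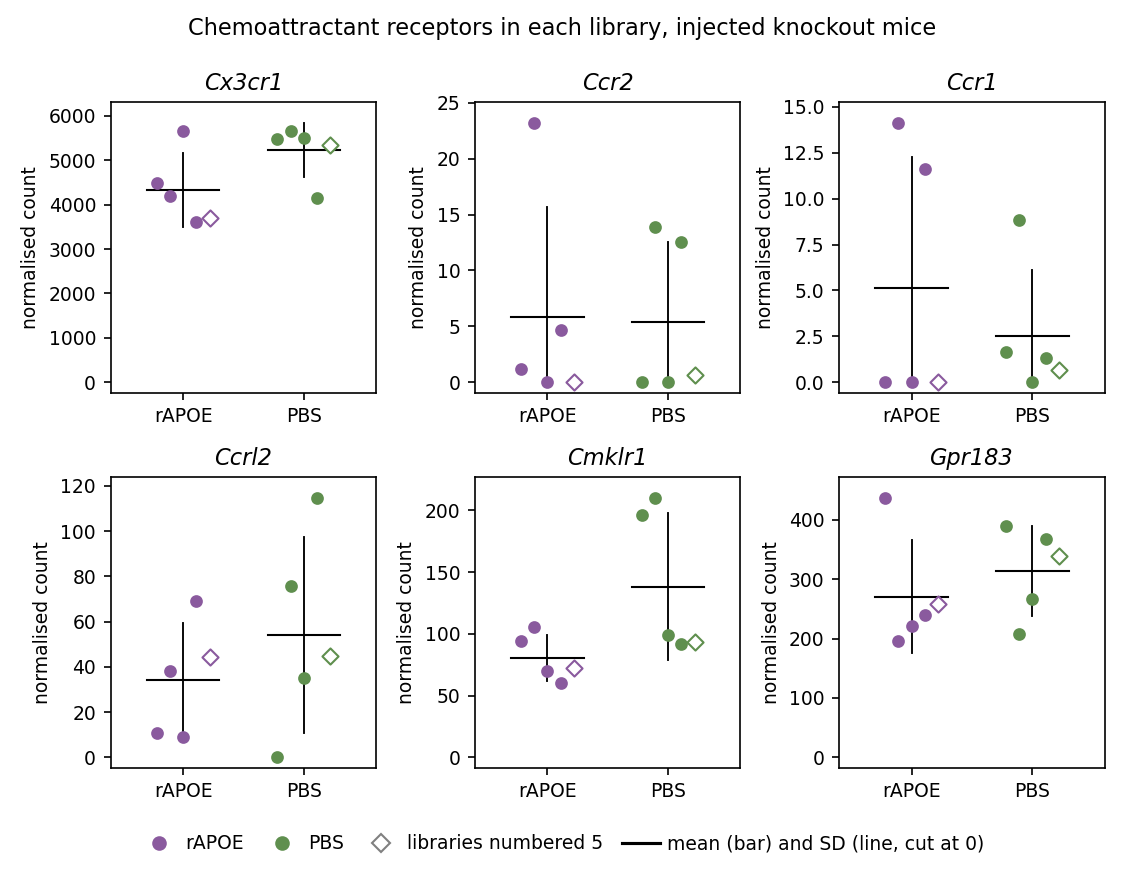
Normalised count of 6 receptors in every injected library, with rAPOE left of PBS and a separate linear axis per receptor; bars are means, lines the SD, and open diamonds are the libraries numbered 5. The groups overlap for each receptor, and the Cmklr1 values of the rAPOE libraries reach 106, against 210 in PBS libraries.

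Cmklr1 was at 94.3, 106, 70.3, 60.5 and 72.3 in rAPOE libraries and at 196, 210, 99.2, 92.2 and 93.3 in PBS libraries. The PBS libraries fell into a high pair (1 and 2) and 3 lower ones that overlapped with the rAPOE range. The log2 difference was -0.70 (SE 0.357, 95% interval -1.44 to 0.05, limma, adjusted p = 0.491), and -0.78 without both libraries numbered 5 (adjusted p = 0.61, within a range of 0.293 to 0.667 over 20 alternatives). Gpr183 was at 436, 196, 222, 240 and 259 in rAPOE libraries and at 390, 207, 267, 367 and 339 in PBS libraries. rAPOE library 1 was the highest of all 10, and the other rAPOE libraries lay within or just below the PBS range. Its log2 difference was -0.24 (95% interval -0.81 to 0.33, limma, adjusted p = 0.798), and -0.20 without both libraries numbered 5 (adjusted p = 0.887, within a range of 0.59 to 0.953 over 20 alternatives).

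Ccrl2 was at 10.6, 38.3, 9.03, 69.1 and 44.3 in rAPOE libraries and at 0, 75.9, 35.2, 115 and 45.0 in PBS libraries. The ranges overlapped over most of their length, and the 95% interval of the log2 difference ran from -2.09 to 2.08 (limma, adjusted p = 0.998), around -0.0052 with all libraries and -0.0007 without both libraries numbered 5. Ccr2 was at 1.18, 23.2, 0, 4.66 and 0 in rAPOE libraries and at 0, 13.9, 0, 12.5 and 0.644 in PBS libraries. Ccr1 was at 0, 14.1, 0, 11.6 and 0 in rAPOE libraries and at 1.65, 8.85, 0, 1.32 and 0.644 in PBS libraries. Both were below the count minimum, with 30 and 29 reads over the rAPOE libraries and 31 and 12 over the PBS libraries, and so were not in the test. A level of 3 reads corresponds to 2.33 to 3.54 in rAPOE libraries and 1.93 to 4.80 in PBS libraries.

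Some microglial markers other than Cx3cr1 fell after rAPOE. Of 10, 0 rose and 3 fell, with a median log2 difference of -0.96, against -0.01 over all genes. The shares over all genes tested were 0.368% passing as higher and 0.113% as lower. P2ry12 was at 514, 302, 1110, 319 and 226 in rAPOE libraries and between 1191 and 1603 in PBS libraries, and rAPOE library 3, which had the highest Cx3cr1 of its group, also had the highest P2ry12. Its log2 difference was -1.77 (limma, adjusted p = 0.00663). Siglech, a sialic acid lectin of microglia, fell by 1.41 on the log2 scale (limma, adjusted p = 0.0261), and Gpr34 fell by 1.57 (limma, adjusted p = 0.0325). Without both libraries numbered 5 none of these passed, while the log2 differences were -1.54 for P2ry12, -1.34 for Siglech and -1.22 for Gpr34: the adjusted p was 0.0519 for P2ry12, 0.18 for Siglech and 0.171 for Gpr34, the highest of each over 20 alternatives apart from P2ry12 (0.0649), and the lowest of each was 6.48e-05, 0.00112 and 0.00197. With single libraries left out as well, Siglech passed in 12 and Gpr34 in 11 of 20 alternatives. The ratio of Cx3cr1 to P2ry12 within a library was 11.1 ± 4.38 in rAPOE and 3.72 ± 0.747 in PBS (SD, n = 5 each), with no overlap between 5.10 to 16.3 and 2.72 to 4.74. The summed level of the markers was 5616 to 16429 in rAPOE libraries and 15991 to 19338 in PBS libraries. Markers of monocytes (10.04 to 448 in rAPOE, 75.9 to 361 in PBS), neutrophils (6.02 to 162 in rAPOE, 92.3 to 208 in PBS), border macrophages (45.9 to 108 in rAPOE, 69.5 to 168 in PBS), choroid plexus (0 to 512 in rAPOE, 0.827 to 267 in PBS), neurons and glia (113 to 315 in rAPOE, 198 to 264 in PBS) and endothelium (24.7 to 68.4 in rAPOE, 21.5 to 97.6 in PBS) overlapped between the groups, and none of those tested passed. Of the lymphocyte markers 1 has a row, at 0 to 10.1 in rAPOE and 0 to 20.8 in PBS.

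Some ligand genes rose after rAPOE. Of 10 tested, 3 rose, 0 fell and 7 did not pass, with a median log2 difference of 1.98, and 0.368% of all genes tested passed as higher. Ccl5 was at 519, 378, 103, 286 and 495 in rAPOE libraries, against 1.65, 8.85, 6.40, 0 and 25.7 in PBS libraries. Every rAPOE library lay above every PBS library, as did 1.59% of all genes tested. Its log2 difference was 5.82 (SE 0.723, limma, adjusted p = 1.18e-04). Ccl12, a mouse ligand of Ccr2, was at 1639, 1720, 630, 2116 and 3584 in rAPOE libraries and at 151, 484, 304, 329 and 403 in PBS libraries, also without overlap, with a log2 difference of 2.43 (SE 0.36, limma, adjusted p = 0.00122). Both Ccl5 and Ccl12 passed in each of 20 alternatives. Mif was at 117 to 229 in rAPOE libraries and 21.1 to 72.1 in PBS libraries, with a log2 difference of 1.85 (limma, adjusted p = 0.0318). It did not pass in 8 of 20 alternatives, among them without both libraries numbered 5 (1.71, adjusted p = 0.239) and without any one of rAPOE libraries 1, 2, 4 and 5 or PBS libraries 1, 4 and 5, with adjusted p from 9.52e-04 to 0.239 in all. Mif has near-identical pseudogene copies, so its count is uncertain.

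**Figure D5:**
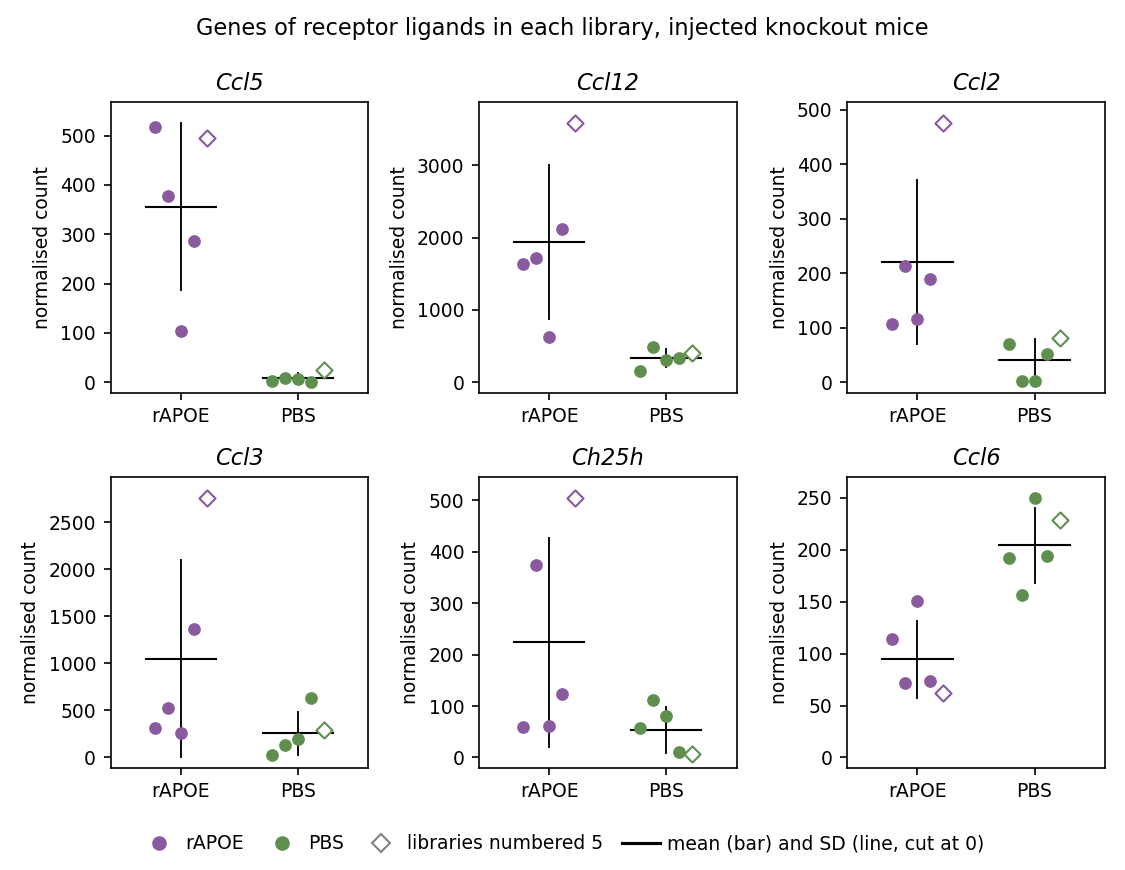
Normalised count of 6 genes that encode or make receptor ligands in every injected library, with rAPOE left of PBS and a separate linear axis per gene; bars are means, lines the SD, and open diamonds are the libraries numbered 5. The groups are separate for Ccl5, Ccl12, Ccl2 and Ccl6, and rAPOE library 5 is the highest for Ccl12, Ccl2, Ccl3 and Ch25h.

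Ccl2, the main ligand of Ccr2, was at 106, 213, 115, 189 and 476 in rAPOE libraries, against 70.3, 2.53, 1.60, 52.7 and 80.4 in PBS libraries. The groups did not overlap, yet the spread among PBS libraries was wide and the log2 difference of 3.27 (SE 0.81) did not pass in limma (adjusted p = 0.0789). It passed in 5 of 20 alternatives, with adjusted p from 0.0125 to 0.234. Ccl3 (log2 difference 2.10, limma, adjusted p = 0.211) and Ccl4 (1.10, adjusted p = 0.417) did not pass. Ch25h, the enzyme of the Gpr183 ligand pathway, was at 58.9, 374, 60.2, 124 and 504 in rAPOE libraries and at 57.1, 111, 81.6, 10.5 and 5.79 in PBS libraries. Its log2 difference of 2.20 did not pass in limma (adjusted p = 0.225), and without both libraries numbered 5 it was 1.20. Ccl6 was at 62.2 to 151 in rAPOE libraries and 157 to 250 in PBS libraries, a separation seen in 1.54% of all genes tested and in the opposite direction to Ccl3 and Ccl5, and its log2 difference of -1.17 did not pass in limma (adjusted p = 0.122). Ccl7, a further ligand of Ccr2, was at 9.43, 80.7, 0, 48.9 and 209 in rAPOE libraries and 0 to 22.8 in PBS libraries. Ccl9 was at 11.8 to 76.2 in rAPOE libraries and 15.8 to 52.1 in PBS libraries. Cxcl12 was below the count minimum, and Cx3cl1 was not analysed here.

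None of 5 other chemoattractant receptors passed after rAPOE in limma. C3ar1, the receptor of complement C3a, was at 560 to 842 in rAPOE libraries and 326 to 437 in PBS libraries, without overlap, and its log2 difference of 0.83 had an adjusted p of 0.117 in limma and 0.0101 in DESeq2, within a range of 0.0101 to 0.398 over 20 alternatives. C5ar1, a receptor of C5a, had a log2 difference of 1.17 (limma, adjusted p = 0.201) and Ptafr one of -1.21 (limma, adjusted p = 0.225). Of 25 signalling genes tested, 0 passed in limma.

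Within groups, the genes most like Cx3cr1 across libraries were not the other receptors. After group means were removed, the 5 genes with the highest Pearson r with Cx3cr1 over the 11 uninjected libraries were Hnrnpa3 (0.96), Ncl (0.96), Trip12 (0.94), Eloa (0.93) and Ankrd44 (0.93), of 5713 genes ranked. Over the 10 injected libraries they were Dusp6 (0.91), P2ry13 (0.91), Snrnp40 (0.91), Serinc3 (0.90) and F11r (0.89), of 2485 genes ranked. No gene is in both sets. Among the receptors, Cmklr1 had an r of 0.77 in the uninjected and 0.34 in the injected libraries, Ccrl2 one of -0.83 in the uninjected libraries, and Gpr183 0.51 in the uninjected and -0.18 in the injected libraries. With group means kept, r over the uninjected libraries was 0.74 for Cmklr1, -0.79 for Ccrl2 and -0.036 for Gpr183. It was 0.067, -0.72, 0.0040, 0.48 and 0.38 for Hnrnpa3, Ncl, Trip12, Eloa and Ankrd44. Over the injected libraries it was 0.57 for Cmklr1, 0.036 for Gpr183 and 0.80 to 0.93 for the 5 genes named there. The ranking was made only with group means removed. These points share libraries, depth and, in the first table, library 8, and the values are descriptions of these libraries.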

How the data were processed

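QuantSeq 3′ tag libraries, sequenced on an Illumina MiniSeq per the labels' protocols, were deposited as 2 tables. Their values are a signal per gene that the authors made by dividing read counts by a factor per library. Each value above 0 is a whole multiple (within 0.01) of 1 step per library, so read counts were recovered. The submitters' processing notes name HTSeq, DESeq2, Picard 1.8.4, R 3.2.3 and GRCm38.p3, and the aligner is not given in the sources used here. Of 18221 entries of the first table, 22 named as dates (0.0966% of summed values) and 120 at 0 throughout were left out.

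Values were fitted as log2(normalised count + 1) with limma 3.58.1 (R 4.3.3), genes with a table mean of at least 10, Benjamini-Hochberg adjusted. On this scale the added 1 shrinks ratios of low values, but libraries at 0 can also make a difference larger than the ratio of means. For knockout over wild type, Ccr2 had a ratio of means of 0.479 and a log2 difference of -2.18. Ccl12 had a ratio of 1.25 and a log2 difference of -0.95, which is the opposite direction. edgeR 4.0.16 and DESeq2 1.42.0 on recovered reads, other scalings, filters and left-out libraries were alternatives. The fits were also run on simulated data, where 12.2% of 2-fold and 90.7% of 8-fold changes passed among 10128 genes of the first comparison. Gene means in the simulation came from the libraries, but the spread came from 1 fixed formula for all groups and both comparisons. The simulated shares are therefore not the power of the test on these data. List counts include a few genes that are not reported here by name. Receptors and gene lists were chosen with earlier results of these data known. Named genes are the receptors, their ligands, and up to 4 passing members per list by adjusted p. Microglial markers, C3ar1, C5ar1 and genes that did not pass beside them were added after their values were seen. Of 542 words of 30 bases in the last 600 bases of the Cx3cr1 transcript, 71 occur in transcripts of other genes, and at most 7 of 571 do for the other receptors. Libraries carry no molecular identifiers, so read floors cover counting error only. No pair of replicate libraries agreed within sampling noise (chi-square per degree of freedom 31.8 to 64.8 in knockout, 3.64 to 5.31 in wild type without library 8, 27.7 to 31.4 between library 8 and those, 8.54 to 24.9 in rAPOE and 10.5 to 24.9 in PBS).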

Additional observations from a re-analysis of the deposited data

Results flagged for a closer look

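In 7 of 26 groups of 4 to 7 libraries examined, the highest or lowest value of a receptor stood farther from its nearest neighbour than Dixon's 95% critical value allows. The rate of about 1 in 20 for this rule holds for independent, normally distributed values. Some groups here hold values at 0 and the receptors share libraries, so the count cannot be set against that rate. In wild type, library 8 stood apart for Cx3cr1 (27054, above the other 6) and for Gpr183 (876, above the other 6). As CPM of the recovered reads, Cx3cr1 in library 8 was instead the lowest of wild type, at 7429 against 9504 to 10293. Gpr183 in library 8 was the highest of wild type on that scale as well, at 240. In knockout, library 4 stood apart for Cxcr4 at 15.5, with the other 3 at 1.14 or 0. In rAPOE libraries, library 2 stood apart for Ccr2 (23.2) and library 1 for Gpr183 (436), both as the highest of 5. In PBS libraries, library 4 stood apart for Cx3cr1 (4148) as the lowest of 5, and library 2 for Ccr1 (8.85) as the highest. The Ccr1 and Ccr2 values of the injected mice rest on few reads, 7 for Ccr1 in PBS library 2 and 23 for Ccr2 in rAPOE library 2.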

How the results depend on the processing

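The count of genes passing for knockout over wild type (2596) became 1657 in edgeR, 1289 with a mean of at least 50, and 2007 to 3169 with 1 library left out. For rAPOE over PBS (34) it became 115 in DESeq2, 64 with log2(value + 5), 67 with quantile normalisation, 11 without both libraries numbered 5, and 16 to 74 with 1 library left out. The count of receptors passing for knockout over wild type (2) became 1 in edgeR, with a mean of at least 50, with quantile normalisation and with scaling to microglial genes, and 0 to 3 with 1 library left out. It was 0 without knockout library 1 or any of wild-type libraries 1, 2, 3, 4, 6 and 7. For rAPOE over PBS it was 0 in all 20 alternatives. The Cx3cr1 difference for knockout over wild type was 0.32 with scaling to microglial genes and 0.45 to 0.55 with 1 library left out. The median log2 difference of all genes (-0.45) became 0.09 with quantile normalisation, -0.63 with microglial scaling, -0.17 in edgeR, -0.19 in DESeq2 and -0.14 with a mean of at least 50.

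With the replicate numbers as a block, 52 genes passed for rAPOE over PBS and 2 receptors for knockout over wild type, where Cx3cr1 had 0.51 and Cxcr4 -4.63. Other changed calls under the block were C5ar2 (-3.05, adjusted p = 0.0874, no longer passing) and Ccl3 (-1.08, 0.00818) and Ccl6 (-1.52, 0.000838, both newly passing) for knockout over wild type, and Ccl2 (3.27, 0.0254) and Ccl3 (2.10, 0.0157), both newly passing, for rAPOE over PBS. The labels do not say whether the numbers pair the libraries. Correlations of same-numbered libraries ran from -0.029 to 0.020 in the uninjected and from -0.0042 to 0.185 in the injected mice. Not every library correlated best with its own number. In the injected mice, rAPOE libraries 4 and 5 correlated with PBS libraries 4 and 5 at 0.0973 to 0.185. Libraries 4 and 5 of each group correlated negatively with libraries 1, 2 and 3 of the other group. Whether a batch goes with the numbers was not tested.

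Signs turned for low genes, and the cause was not tested. For knockout over wild type, quantile normalisation gave Ccr1 1.13, Ccr2 0.035, Cxcl12 0.14, Ccl12 0.0094 and Ch25h 1.89. DESeq2 gave Ccl12 0.32, Ccl2 -0.026 and Ch25h 1.28, edgeR gave Ccl12 0.35 and Ch25h 1.26, and log2(value + 5) gave Ccl2 -0.0068 and Ch25h 0.22. Ccl2 was -0.36 with the block and -0.16 with microglial scaling. With 1 library left out the ranges were -0.35 to 0.18 for Ccr1, -1.74 to 0.60 for Ccl12, -0.34 to 0.29 for Ccl2 and -0.75 to 0.59 for Ch25h. For rAPOE over PBS, Ccrl2 was 0.11 with microglial scaling and -1.20 to 0.52 with 1 library left out. Of 922 alternative values of 47 gene results, 805 kept direction and side of the threshold, 62 no longer passed, 27 newly passed and 28 reversed. Ccr1, Ccr2 and Cxcr4 rest on few reads, at most 312 in a group.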
